A study of Mus musculus with 18 samples.

Results

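Fibroblasts of the oral mucosa were compared with fibroblasts of the dorsal dermis in mice, with 3 arrays titled Oral set against 3 titled Dorsal, 6 of the 18 arrays of the series. The arrays were chosen by title alone, and all genes were compared as Oral minus Dorsal. Oral cells came from oral mucosa of Wnt1Cre; R26mTmG mice and Dorsal cells from dorsal dermis of En1Cre; R26mTmG mice, each at postnatal day 30 with no treatment or stimulus. Both groups carry the R26mTmG reporter, in which Cre switches a cell and its descendants from red (RFP) to green (GFP) fluorescence. Both were sorted as GFP positive and RFP negative cells that lacked CD31, CD45, Tie2, a marker the labels write as Tie119, EpCAM and DAPI. Site and reporter line coincide in this comparison and cannot be told apart. Cranial arrays (cranial dermis, Wnt1Cre; R26mTmG, 3 arrays) and Ventral arrays (ventral dermis, En1Cre; R26mTmG, 3 arrays), both at postnatal day 30 and sorted in the same way, served as the other site of each line.

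Fibroblasts make the collagen and other matrix of connective tissue, and their embryonic origin differs along the body. The connective tissue of the jaw and much of the face derives from the neural crest, whose precursors express Wnt1, while dorsal trunk dermis derives from mesoderm, in which Engrailed-1, the product of En1, marks a dermal lineage. Hox genes are expressed in nested domains along the trunk and are largely silent in the neural crest that fills the jaw, where homeobox genes of the Dlx, Lhx, Msx and Pitx families act instead. Oral mucosa is known for healing with little scar, and dorsal skin for healing with a scar. A Cre line marks descendants of cells that once expressed the driver, so the driver gene need not be on in the adult.

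Values are log2 expression after robust multichip averaging (RMA), so a difference of 1 is a doubling, and differences are given ± SE. The lower quartile of the 12 site arrays lay between 3.93 and 4.10. A level at or under it is called dim below, and a difference that starts from a dim level is uncertain in size. Across genes, the Oral arrays correlated with each other at 0.995 to 0.997 and the Dorsal arrays at 0.946 to 0.975, while Oral and Dorsal arrays correlated at 0.948 to 0.969. The median SD per gene was 0.134 in Oral and 0.281 in Dorsal, and limma gave its lowest array weights to Dorsal 1 (0.0862) and Dorsal 3 (0.235). The labels do not say that the arrays of a group came from separate animals, so p-values measure the spread between these arrays, which may be technical.

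The fibroblast identity and the sort gate were checked first. Col1a1, a chain of the main fibrillar collagen, read 13.18, 13.45 and 13.06 in Oral and 13.13, 13.46 and 13.67 in Dorsal. Pdgfra, a receptor of fibroblasts, read 11.86, 11.92 and 11.76 in Oral and 11.85, 11.47 and 12.27 in Dorsal. Both genes were high in all 6 arrays with overlapping groups, and neither was called. Of 15 general fibroblast markers 0 were higher and 2 lower in Oral (13.3% lower, against 6.3% of all genes). The lower ones were Dcn, described below, and Pdgfrb, whose call was lost in 7 of 12 fits that each left out 1 array. Col1a1 has 1 other probe set, at 1.21 and not called. Pdgfra has 2 other probe sets, at -1.70 and -0.84, of which 1 was called lower in Oral. Pecam1 (the gene of CD31), Ptprc (CD45) and Tek (Tie2) lay between 3.69 and 4.20 in both groups, at the dim end of the arrays. Epcam read 8.68, 8.65 and 8.94 in Oral and 7.47, 8.86 and 8.96 in Dorsal despite the gate against EpCAM, whereas Cdh1, another epithelial gene, lay between 2.99 and 3.42. En1 was dim in both groups, at 3.25 to 3.66 in Oral and 3.76 to 4.08 in Dorsal. Even so, limma called it lower in Oral, a call lost in 4 of 12 fits without 1 array (adjusted p up to 0.0842). Wnt1 lay between 5.24 and 5.53 in both and was not called.

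Of 18193 genes tested, limma called 3065 (16.8%) at an adjusted p under 0.05, with 1918 (10.5%) higher and 1147 (6.3%) lower in Oral. Among them 1148 (6.31%) differed by at least 2-fold, 769 higher (4.23%) and 379 lower (2.08%). The 3 Oral arrays lay wholly beyond the 3 Dorsal arrays in 5484 genes (30.1%), and 5524 (30.4%) had an unadjusted p under 0.05. The balance of directions rested on the scaling. Higher genes were 62.6% of calls as deposited, 50.4% (1783 higher, 1756 lower) after quantile normalization of the 12 site arrays, and 24.9% (1338 higher, 4045 lower) with each array centred on its median, which moved the median difference of all genes from -0.02 to -0.23. Leaving out Dorsal 1 raised the count to 5623. The count was 2060 without Oral 1, 1770 without Oral 2 and 2025 without Oral 3, and 4008 (2765 higher, 1243 lower) without Dorsal 1 and Dorsal 3 together. Between the sites of a single line fewer genes were called, 207 (1.14%; 0.407% higher and 0.731% lower) for Oral against Cranial and 5 (0.0275%) for Ventral against Dorsal, where 1555 (8.55%) had an unadjusted p under 0.05. The order turned when only the 2 groups compared were fitted, with 1795 genes called for Oral against Cranial and 1065 for Oral against Dorsal. These comparisons share the Oral or the Dorsal arrays with the main one.

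**Figure D1:**
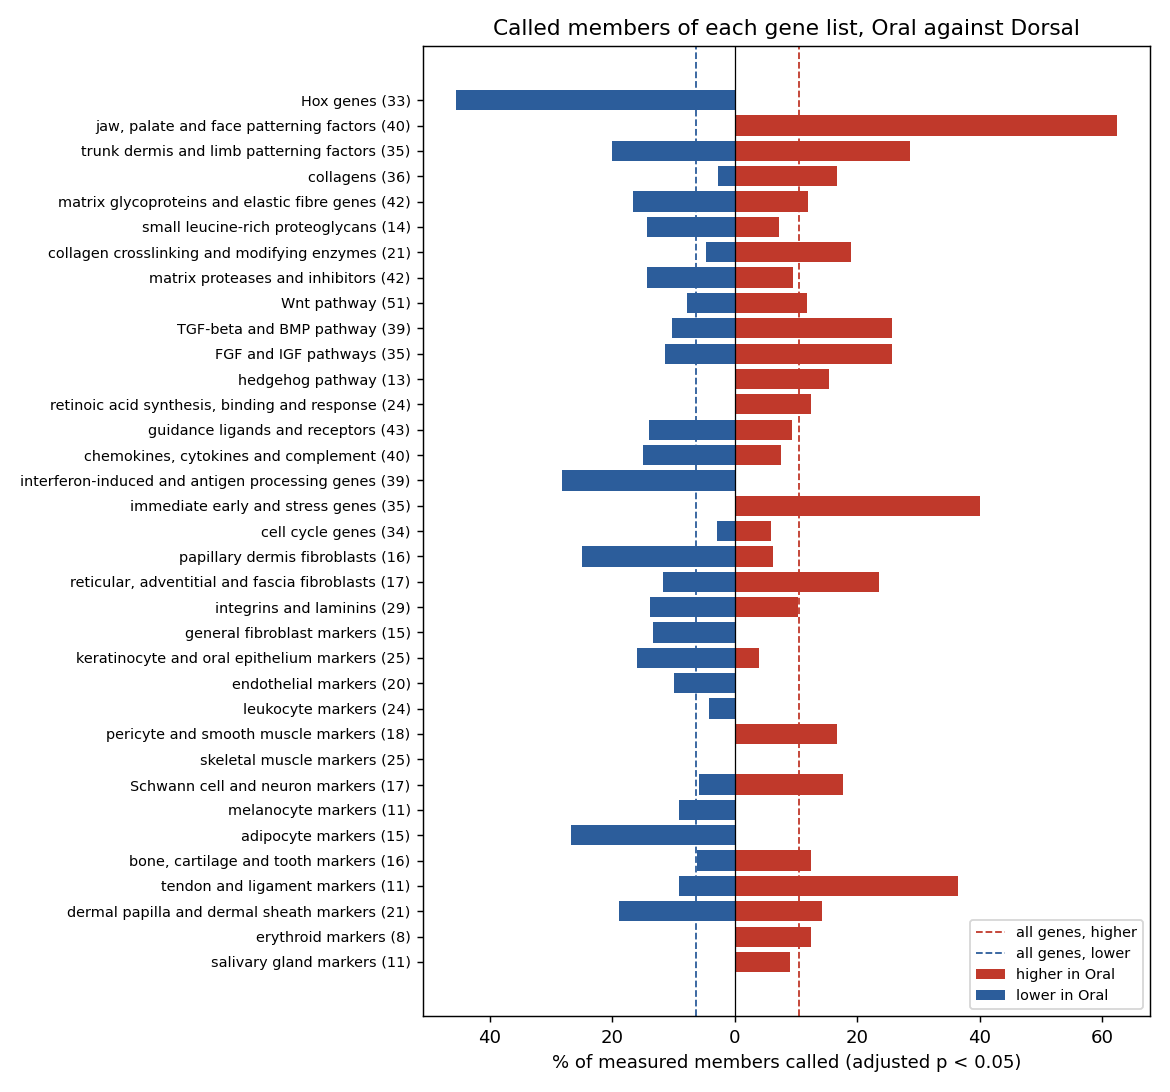
Share of the measured members of each of 35 gene lists that limma called higher (red, to the right) or lower (blue, to the left) in Oral than in Dorsal, in percent, with the number measured in brackets. Dashed lines give the shares over all genes, 10.5% higher and 6.3% lower. Jaw, palate and face factors reached 62.5% higher and Hox genes 45.5% lower.

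Among all genes, the largest rise was in Angptl1, which encodes a secreted angiopoietin-like protein. It read 9.04, 9.13 and 8.91 in Oral and 3.26, 3.98 and 4.85 in Dorsal, a difference of 4.99 ± 0.32 (31.9-fold, adjusted p = 4.66e-06). Angptl1 has 2 other probe sets, at -0.03 and 0.85, of which 1 was called higher in Oral. Nr2f1, an orphan nuclear receptor of neural crest and forebrain, read 8.56, 8.73 and 8.55 in Oral against 3.43, 4.80 and 3.63 in Dorsal (4.66 ± 0.28, adjusted p = 2.82e-06). In both genes the Oral arrays sat close together, and at least 2 Dorsal arrays were dim. Mgp, an inhibitor of calcification, read 9.75, 9.68 and 9.49 in Oral and 5.54, 5.76 and 5.84 in Dorsal (3.93 ± 0.43, adjusted p = 0.000211). Ptgs2, the inducible cyclooxygenase of prostaglandin synthesis, read 10.69, 11.60 and 11.49 in Oral and 7.67, 6.35 and 6.34 in Dorsal (4.48 ± 0.81, adjusted p = 0.00385). The other Ptgs2 probe set was called higher too, at 1.28. The other leading rises included Sbspon (4.68 ± 0.43), Mab21l2 (3.89 ± 0.11), Rtl3 (3.80 ± 0.42), the POU factor gene Pou3f3 (3.63 ± 0.19), Tmem26 (3.62 ± 0.22) and the homeobox gene Meox2 (3.61 ± 0.30). The other probe set of Pou3f3 was at 0.06 and not called. Means in Cranial were also above Dorsal, at 7.43 for Angptl1, 7.79 for Nr2f1, 10.85 for Mgp and 11.54 for Ptgs2. Oral against Cranial, limma called Angptl1 (1.60 ± 0.32, adjusted p = 0.0440) and not Nr2f1, Mgp or Ptgs2.

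**Figure D2:**
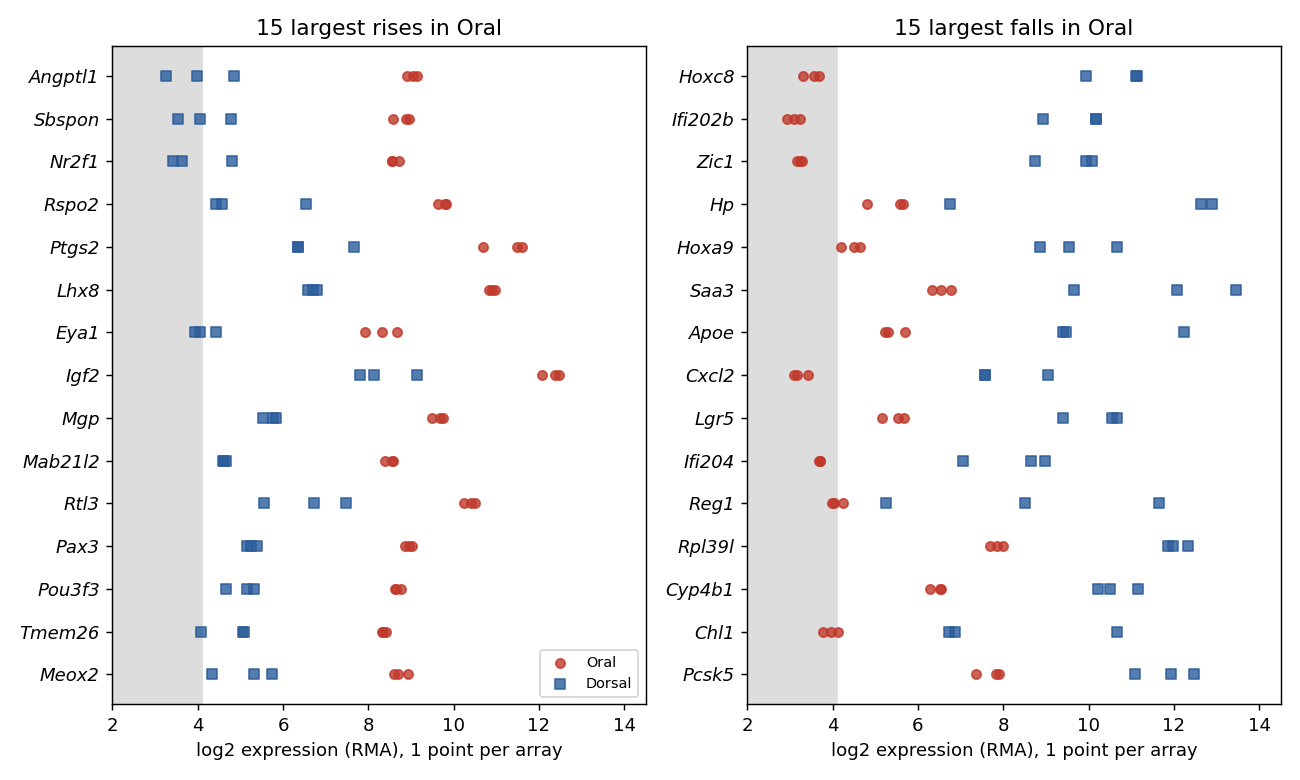
Log2 expression in each Oral (red circles) and Dorsal (blue squares) array for the 15 called genes with the largest rise (left) and the 15 with the largest fall (right). Grey marks levels up to the highest lower quartile of the site arrays, 4.10. Oral points lie close together in most genes, while Dorsal points spread widely in Hp, Saa3, Reg1 and Chl1.

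The largest fall, in Hoxc8, is described with its family below. Ifi202b, an interferon-inducible gene of the p200 family, read 2.93, 3.10 and 3.23 in Oral and 10.18, 8.93 and 10.17 in Dorsal (fell by 6.68 on the log2 scale, SE 0.28, adjusted p = 2.76e-07). Every Oral array was dim and every Dorsal array bright, and the family's near-identical copies make the gene assignment of its probe set uncertain. Apoe, a lipid carrier, read 5.69, 5.30 and 5.22 in Oral and 9.46, 9.40 and 12.23 in Dorsal (fell by 4.96, SE 0.87, adjusted p = 0.00328). Cyp4b1, a cytochrome P450 gene, read 6.53, 6.28 and 6.52 in Oral and 10.21, 10.50 and 11.15 in Dorsal (fell by 4.18, SE 0.40, adjusted p = 7.84e-05). Pcsk5, a proprotein convertase, read 7.82, 7.89 and 7.35 in Oral and 11.94, 11.08 and 12.48 in Dorsal (fell by 4.14, SE 0.37, adjusted p = 5.74e-05). These leading falls were chosen among genes whose Oral and Dorsal arrays did not overlap, so their lack of overlap is no added evidence. Cyp4b1 and Pcsk5 were also lower in Oral than in Cranial, where their means were 10.03 and 11.13 (adjusted p = 0.000756 and 0.000710). Rpl39l, a ribosomal protein gene with near-identical copies, was lower by 4.21 with the same reserve as Ifi202b.

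Some of the leading falls were uneven across the Dorsal arrays. Saa3, a serum amyloid gene induced in inflammation, read 6.54, 6.78 and 6.34 in Oral and 12.07, 9.65 and 13.46 in Dorsal (fell by 5.18, SE 0.83, adjusted p = 0.00197), and by 3.10 against Dorsal 2 alone (adjusted p = 0.00867), a fit in which the lone Dorsal array is assumed to vary like the other groups. Hp, the haptoglobin gene, read 5.64, 4.81 and 5.57 in Oral against 12.90, 6.76 and 12.63 in Dorsal (fell by 5.42, SE 1.64, adjusted p = 0.0450). Its size came from Dorsal 1 and Dorsal 3, and against Dorsal 2 alone the fall was 1.42 (adjusted p = 0.568). In fits without 1 array the Hp call was lost in 10 of 12, with adjusted p up to 0.134. Reg1 ran from 5.25 to 11.66 over the Dorsal arrays, and its call was lost in 9 of 12 such fits, with adjusted p up to 0.100. Chl1, a neural cell adhesion gene, was at 10.67 in Dorsal 3 and at 6.87 and 6.74 in the other Dorsal arrays, and its call was lost in 3 of the 12, those without Oral 1, 2 or 3 (adjusted p up to 0.0641).

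Hox genes separated the groups in 1 direction. Of 33 measured of 39 listed, 15 were lower in Oral, 0 higher and 18 not called (45.5% lower, against 6.3% of all genes), with a median difference of -0.39 against -0.02 over all genes. Hoxc8, a thoracic Hox gene, read 3.68, 3.31 and 3.56 in Oral and 9.95, 11.13 and 11.12 in Dorsal (fell by 7.22, SE 0.26, 149-fold, adjusted p = 1.08e-07). Hoxa9 read 4.50, 4.64 and 4.19 in Oral and 10.67, 8.86 and 9.53 in Dorsal (fell by 5.24, SE 0.36, adjusted p = 6.95e-06). Its other probe set was at -0.66 and not called. Hoxc10 read 4.61, 4.02 and 4.22 in Oral and 7.43, 8.25 and 8.42 in Dorsal (fell by 3.75, SE 0.30, adjusted p = 2.64e-05). All 3 genes were near the dim end in Oral and bright in Dorsal. The HoxC cluster held 6 of the 15 lower genes, namely Hoxc4, Hoxc5, Hoxc6, Hoxc8, Hoxc9 and Hoxc10, and Hoxc13 was not called (0.02 ± 0.12). The count of lower Hox genes ran from 9 to 23 over the alternatives and was 14 without Dorsal 1 and Dorsal 3, and no alternative called a Hox gene higher.

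Among the other sites, Hox genes differed in whether Cranial levels lay near Oral or near Dorsal. In Cranial, Hoxa9 averaged 4.75, Hoxc10 4.14 and Hoxc8 4.57, and limma called none of these for Oral against Cranial. Ventral means were 9.80, 9.25 and 10.71 for the same genes. Hoxd8 was different, with 5.07, 5.23 and 5.71 in Oral, 9.05, 8.29 and 8.93 in Dorsal and a mean of 9.19 in Cranial. It was lower in Oral than in Dorsal (by 3.42 ± 0.35, adjusted p = 0.000138) and than in Cranial (by 3.85 ± 0.35, adjusted p = 0.000205). Hoxc4 lay between, at 4.79, 4.59 and 4.67 in Oral, a mean of 6.58 in Cranial and 8.11, 8.35 and 8.26 in Dorsal, and both differences were called. Hoxa5 read 7.65, 7.65 and 8.47 in Oral and 7.23, 8.34 and 8.32 in Dorsal, so a Hox gene of the anterior trunk was well above the dim end in Oral (-0.04 ± 0.33, not called).

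**Figure D3:**
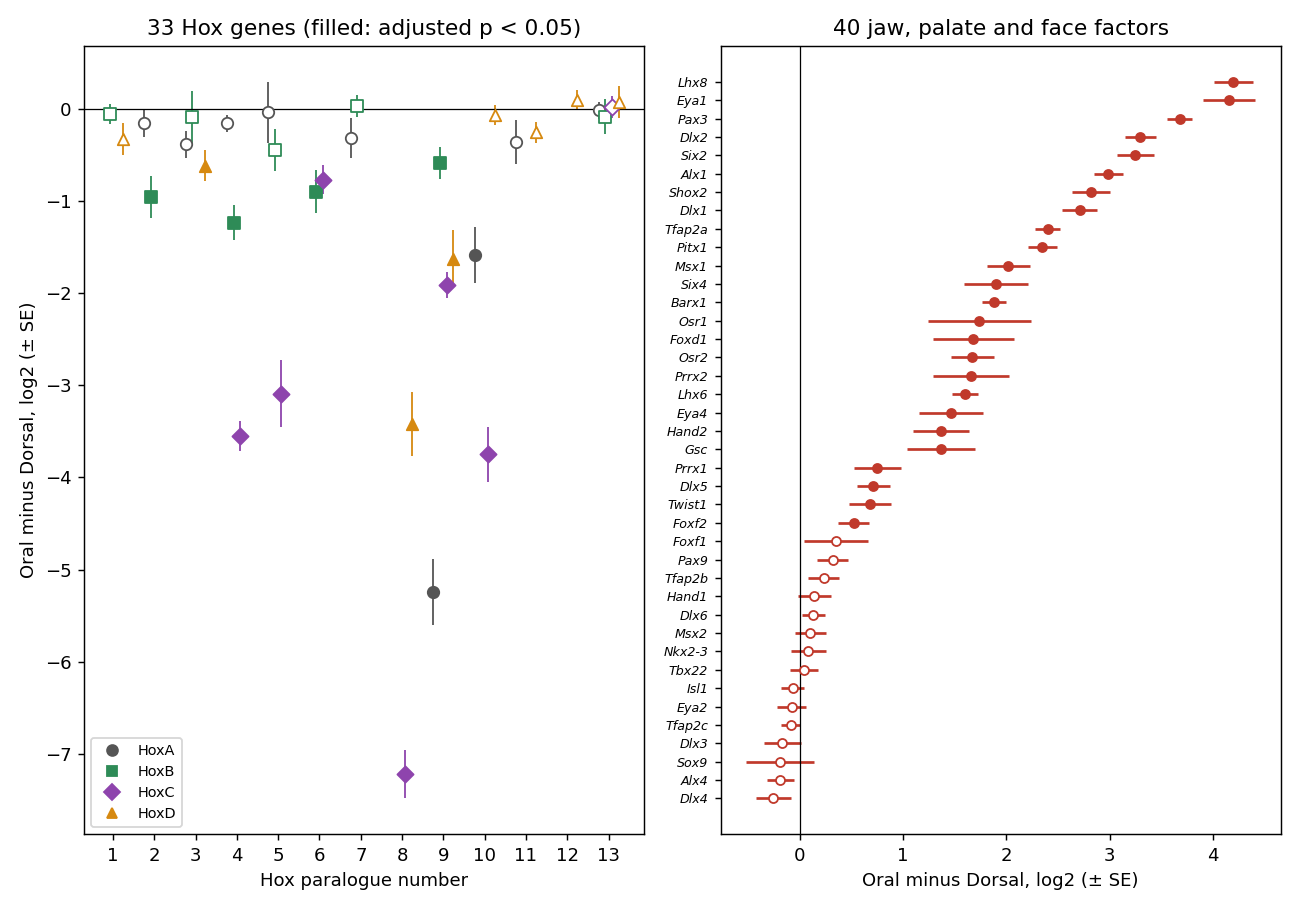
Oral minus Dorsal, in log2 with SE, for 33 Hox genes by paralogue number and cluster (left) and for 40 jaw, palate and face factors (right), with filled symbols for an adjusted p under 0.05. The largest falls are Hoxc8 at -7.22 and Hoxa9 at -5.24, and the face factors run from -0.26 for Dlx4 to 4.20 for Lhx8.

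Patterning factors of the jaw, palate and face moved the other way. Of 40 measured of 45 listed, 25 were higher in Oral, 0 lower and 15 not called (62.5% higher, against 10.5% of all genes), with a median difference of 1.37. Lhx8, a LIM homeobox factor of jaw and palate mesenchyme, read 10.89, 10.98 and 10.83 in Oral and 6.59, 6.71 and 6.79 in Dorsal (4.20 ± 0.19, 18.4-fold, adjusted p = 3.94e-07). Eya1, a transcriptional coactivator and phosphatase, read 7.91, 8.68 and 8.33 in Oral and 3.93, 4.06 and 4.44 in Dorsal (4.16 ± 0.25, adjusted p = 2.82e-06). Its 2 other probe sets, at -0.01 and 0.23, were not called. Six2, a homeobox gene whose product partners with Eya1, read 8.83, 8.59 and 8.52 in Oral and 4.96, 5.78 and 5.46 in Dorsal (3.25 ± 0.18, adjusted p = 1.53e-06). Pax3, a paired-box factor of neural crest, read 9.03, 8.96 and 8.87 in Oral and 5.16, 5.26 and 5.40 in Dorsal (3.68 ± 0.12, adjusted p = 3.62e-08). In all 4 genes the gap between the groups was several times the range within either. Dlx2, which acts in the first pharyngeal arch, was higher by 3.30 ± 0.15 and Dlx1 by 2.71 ± 0.17, while Dlx3, Dlx4 and Dlx6 were not called (-0.17, -0.26 and 0.13). Tfap2a, a neural crest factor, was higher by 2.40 ± 0.12, Pitx1, a factor of the lower jaw and hindlimb, by 2.35 ± 0.14, and Msx1, required for the palate and teeth, by 2.02 ± 0.21. Alx1 (2.99 ± 0.14), Shox2 (2.82 ± 0.18), Barx1 (1.88 ± 0.12) and Lhx6 (1.60 ± 0.13) were also higher. Pax9 (0.32 ± 0.15), Msx2 (0.10 ± 0.15) and Tbx22 (0.04 ± 0.14) were not called. The count higher ran from 16 to 25 over the alternatives. Lower members numbered up to 2, with 2 under median centring and 1 without Dorsal 1.

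Many of these factors were higher in Oral than in Cranial as well, though both come from the Wnt1Cre line. Six2 averaged 5.60 in Cranial, close to its Dorsal arrays, and differed from Oral by 3.04 ± 0.18 (adjusted p = 1.28e-05). Lhx6 averaged 4.38 and Pitx1 5.28 in Cranial, against 4.39 to 4.62 and 5.03 to 5.36 in Dorsal, and both were called for Oral against Cranial (adjusted p = 5.08e-05 and 1.28e-05). Dlx2 was at 7.60 in Cranial, nearer to Oral (8.12, 8.54 and 8.44), and differed by 0.76 ± 0.15 (adjusted p = 0.0405). Osr1, Foxd1, Prrx1, Prrx2 and Twist1 were higher in Oral than in Dorsal by 0.68 to 1.74 and were not called against Cranial. Hand2 averaged 6.54 in Cranial and 7.04 in Ventral, above the Oral arrays (6.02, 5.84 and 6.03) and the Dorsal ones (4.13, 4.68 and 4.98).

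Factors of trunk dermis and limb went both ways, with 10 of 35 measured higher, 7 lower and 18 not called (28.6% and 20%, against 10.5% and 6.3% of all genes, median 0.01). The lower members numbered 13 without Dorsal 1, and 4 without Dorsal 2, Oral 1 or Oral 3. Zic1, a zinc finger factor of dorsal neural tube and dorsal mesoderm, read 3.16, 3.23 and 3.28 in Oral and 8.75, 10.08 and 9.95 in Dorsal (fell by 6.37, SE 0.31, adjusted p = 6.00e-07). Its mean was 8.04 in Cranial and 4.47 in Ventral, and both Oral against Cranial (adjusted p = 1.49e-05) and Ventral against Dorsal were called, so the gene followed neither line. Irx2, an Iroquois homeobox gene, read 6.02, 6.26 and 6.10 in Oral and 7.99, 7.71 and 7.75 in Dorsal (fell by 1.69, SE 0.11, adjusted p = 3.73e-06). The higher members were led, after Nr2f1, Mab21l2 and Meox2, by Mab21l1 (2.83 ± 0.37) and Tbx2 (2.17 ± 0.18), a T-box repressor. Tbx15, a dermal T-box gene, was high in both groups and higher in Oral by 0.97 ± 0.26 (adjusted p = 0.0286). Twist2 was lower by 0.78 (SE 0.12), while Twist1 was higher by 0.68 ± 0.20. Meis1, a Hox cofactor, was lower by 0.72, and its call was lost in 9 of the 12 fits without 1 array (adjusted p up to 0.124).

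Among Wnt pathway genes 6 of 51 measured were higher and 4 lower (11.8% and 7.84%, near the shares of all genes), and 7 were lower without Dorsal 3 or Ventral 1. Rspo2, a secreted R-spondin that amplifies Wnt signalling, read 9.63, 9.81 and 9.80 in Oral and 4.42, 4.57 and 6.53 in Dorsal (4.57 ± 0.45, adjusted p = 0.000110). Its other probe set was at -0.11 and not called. Lgr5, an R-spondin receptor, read 5.68, 5.53 and 5.15 in Oral and 9.40, 10.54 and 10.66 in Dorsal (fell by 4.75, SE 0.63, adjusted p = 0.000609). The other Lgr5 probe set was called lower as well, at -1.03. The ligand and this receptor thus differed in opposite directions. Lgr5 averaged 10.56 in Cranial and was called there too (adjusted p = 0.00177), while Rspo2 averaged 7.91 in Cranial and was not (1.84 ± 0.45, adjusted p = 0.103). Lgr4, the related receptor, was higher by 1.29 ± 0.19 on the probe set used, and another of its probe sets was called the other way. Wnt5a, a ligand of noncanonical Wnt signalling, read 10.78, 11.00 and 10.87 in Oral and 9.18, 8.37 and 7.31 in Dorsal (2.60 ± 0.54, adjusted p = 0.00820). Dkk2, a secreted Wnt inhibitor, read 5.74, 5.74 and 5.58 in Oral and 8.87, 6.65 and 9.27 in Dorsal (fell by 2.57, SE 0.51, adjusted p = 0.00637). The Dkk2 fall was 0.96 against Dorsal 2 alone (adjusted p = 0.00392). Axin2, a target of canonical Wnt signalling, read 5.95, 5.73 and 5.55 in Oral and 5.78, 5.67 and 5.68 in Dorsal, with overlapping groups and no call.

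In a list of FGF, IGF, PDGF and VEGF genes 9 of 35 were higher, 4 lower and 22 not called (25.7% and 11.4%, against 10.5% and 6.3% of all genes), and 2 were lower without Oral 1 or without Oral 2. Igf2, a fetal growth factor, read 12.38, 12.47 and 12.06 in Oral and 7.81, 9.13 and 8.14 in Dorsal (3.94 ± 0.70, 15.4-fold, adjusted p = 0.00354). The other Igf2 probe set was called higher as well, at 0.67. The IGF binding protein genes Igfbp2 (3.04 ± 0.68), Igfbp4 (2.77 ± 0.35) and Igfbp6 (2.04 ± 0.35) were higher too. Igfbp4 read 12.42, 12.51 and 12.18 in Oral and 8.94, 9.45 and 10.42 in Dorsal. Other members of the family differed from this: Igfbp7, from the glycoprotein list, fell by 0.90 (adjusted p = 0.00278), and Igfbp3 (-1.21 ± 0.78) and Igf1 (-0.17), both chosen after their values were seen, were not called. Cranial means were 12.24 for Igf2, 11.26 for Igfbp2 and 12.58 for Igfbp4, and none was called for Oral against Cranial. Pdgfa, a platelet-derived growth factor, read 8.12, 8.46 and 8.50 in Oral and 6.65, 6.70 and 6.19 in Dorsal (1.85 ± 0.17, adjusted p = 6.81e-05) and was called against Cranial as well (1.07 ± 0.17, adjusted p = 0.0104). Vegfc, a lymphatic growth factor, was lower by 1.41 (SE 0.18) and Fgf10, a mesenchymal FGF ligand, by 1.16 (SE 0.22).

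**Figure D4:**
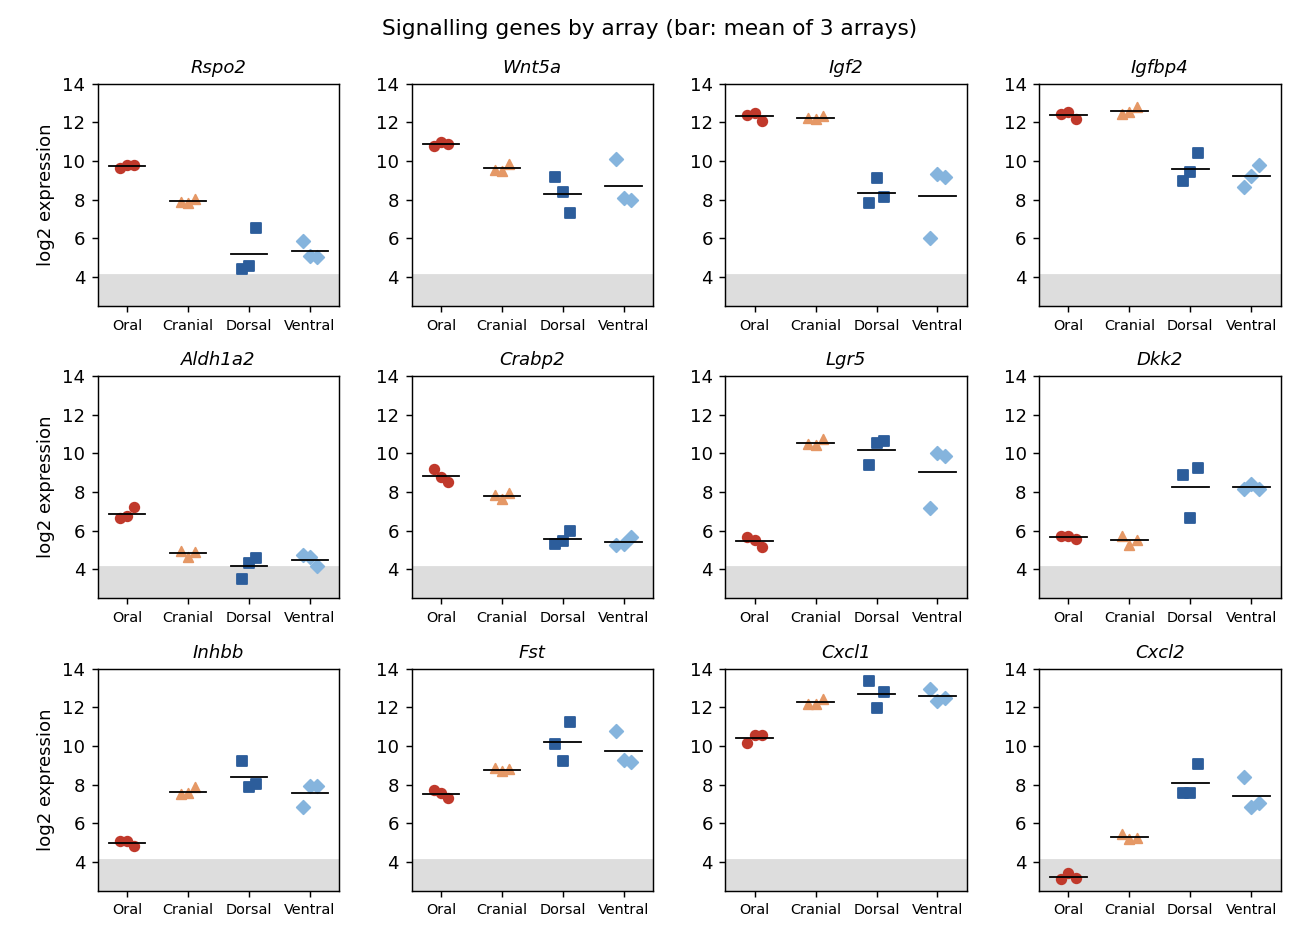
Log2 expression of 12 signalling genes in each array of Oral, Cranial (both Wnt1Cre), Dorsal and Ventral (both En1Cre), with a bar at the mean of 3 arrays and grey for dim levels up to 4.10. Igf2 and Igfbp4 are alike in height in Oral and Cranial, while Lgr5, Inhbb and Cxcl1 are lower in Oral than in the other 3 sites and Dkk2 is low in Oral and Cranial.

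In the TGF-beta and BMP pathway 10 of 39 measured genes were higher, 4 lower and 25 not called (25.6% and 10.3%, against 10.5% and 6.3% of all genes, median 0.28). Without Dorsal 2 the lower members numbered 7, and the higher ones numbered 15 without Dorsal 1 and 6 without Oral 1. The lower genes were activin subunits and antagonists. Inhbb, an activin beta chain, read 5.06, 5.06 and 4.81 in Oral and 9.23, 7.90 and 8.02 in Dorsal (fell by 3.41, SE 0.36, adjusted p = 0.000157). Its other probe set was at -0.31 and not called. Fst, the activin antagonist follistatin, read 7.72, 7.55 and 7.29 in Oral and 10.12, 9.20 and 11.22 in Dorsal (fell by 2.66, SE 0.49, adjusted p = 0.00425), and by 1.68 against Dorsal 2 alone. Grem1, a BMP antagonist, was lower by 1.27 (SE 0.25, adjusted p = 0.00557). Inhba was lower by 1.84, a call lost in 9 of 12 fits without 1 array (adjusted p up to 0.141). On the other side, the BMP ligand gene Bmp6 read 5.98, 5.86 and 6.01 in Oral and 4.61, 4.79 and 5.07 in Dorsal (1.13 ± 0.12, adjusted p = 0.000174). The BMP target Id4 was higher by 1.33 ± 0.23, and Smad6 and Smad7, inhibitory Smads induced by the pathway, were among the higher genes. The 2 other probe sets of Id4, at -0.27 and 0.24, were not called, and its call was lost with the mean of probe sets. Id1, another target, was higher by 2.58 ± 0.65 and Bmp4 by 1.28 ± 0.31. Without Dorsal 2 the Id1 difference was 1.93 (adjusted p = 0.0583), and Id1 was lost in 4 and Bmp4 in 2 of 12 such fits.

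Retinoic acid genes gave 3 higher, 0 lower and 21 not called of 24 measured, and 5 were dim in both groups. The share higher was 12.5%, near the 10.5% of all genes. Aldh1a2, which makes retinoic acid, read 6.66, 6.76 and 7.25 in Oral and 3.51, 4.34 and 4.59 in Dorsal (2.75 ± 0.27, adjusted p = 0.000105). Crabp2, a carrier of retinoic acid to the nucleus, read 9.18, 8.79 and 8.51 in Oral and 5.33, 5.45 and 5.97 in Dorsal (3.24 ± 0.21, adjusted p = 4.66e-06). Rarg, a retinoic acid receptor, was higher by 2.12 ± 0.17 (adjusted p = 2.64e-05), and its other probe set was at 0.16 and not called. The groups did not overlap in Aldh1a2, Crabp2 or Rarg, a lack of overlap seen in 30.1% of all genes. Aldh1a2 was called against Cranial (2.07 ± 0.27, adjusted p = 0.00266), and Crabp2 and Rarg were not (adjusted p = 0.0518 and 0.597). Of 13 hedgehog genes 2 were higher and 0 lower (15.4% higher, against 10.5% of all genes). Smo, the signal transducer, and Cdon, a coreceptor, were higher by 0.89 ± 0.11 and 0.87 ± 0.18. The hedgehog target genes Gli1 (0.05 ± 0.13) and Ptch1 (0.37 ± 0.41) were not called.

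Guidance genes gave 4 higher and 6 lower of 43 measured (9.3% and 14%, against 10.5% and 6.3% of all genes), with 10 lower without Dorsal 1. Epha3, an ephrin receptor, read 9.94, 10.42 and 10.42 in Oral and 7.36, 7.68 and 6.58 in Dorsal (3.06 ± 0.24, adjusted p = 2.06e-05). Unc5c, a netrin receptor, was higher by 1.29 ± 0.15, while Ntn1, a netrin, was lower by 1.79 (SE 0.42). The Ntn1 fall was 1.72 without Oral 2 (adjusted p = 0.0578) and 1.27 against Dorsal 2 alone (adjusted p = 0.118). Plxna2, a semaphorin receptor, read 5.91, 5.88 and 5.54 in Oral and 7.15, 7.99 and 7.61 in Dorsal (fell by 1.81, SE 0.19, adjusted p = 0.000170). Epha4 was lower by 1.56 on the probe set used, with another of its probe sets called the other way.

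Matrix genes were called in both directions, and the counts of several lists moved by over 1.5 times without 1 array. Of 36 collagens 6 were higher, 1 lower and 29 not called (16.7% and 2.78%, against 10.5% and 6.3% of all genes, median 0.07). The 2-group fit called 0 higher while median centring called 9 lower. Col4a2, a basement membrane collagen, read 11.56, 11.68 and 11.49 in Oral and 9.61, 10.37 and 10.99 in Dorsal (1.25 ± 0.26, adjusted p = 0.00791). Col11a1 and Col14a1 were higher by 1.35 ± 0.35 and 1.80 ± 0.55, with calls lost in 4 and 10 of 12 fits without 1 array. Without Dorsal 2 only 1 collagen was called higher. Of 42 glycoprotein and elastic fibre genes 5 were higher and 7 lower (11.9% and 16.7%, against 10.5% and 6.3% of all genes). With Dorsal 1 left out, 8 were higher. Tnn, tenascin-W, read 9.25, 9.58 and 9.56 in Oral and 6.09, 6.21 and 6.08 in Dorsal (3.33 ± 0.13, adjusted p = 2.28e-07), a gap far beyond the range of either group. Thbs4, a thrombospondin of tendon, was higher by 2.39 ± 0.29. The lower genes were Thbs2 (fell by 1.56, SE 0.19), the proteoglycan Vcan (fell by 1.54, SE 0.20), Tgfbi (fell by 0.94, SE 0.13), Thbs1, Tnc, Igfbp7 and Fbln2. Tnc, tenascin-C, fell by 0.97 and by 0.90 without Oral 3 (adjusted p = 0.0716).

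Of 14 small leucine-rich proteoglycans 1 was higher and 2 lower (7.14% and 14.3%, against 10.5% and 6.3% of all genes). Dcn, decorin, a regulator of collagen fibril width, read 10.82, 10.82 and 10.76 in Oral and 12.88, 12.85 and 13.87 in Dorsal (fell by 2.40, SE 0.33, adjusted p = 0.000741). Aspn, asporin, was lower by 1.71 (SE 0.24, adjusted p = 0.000951). Both were lower in Oral than in Cranial as well (adjusted p = 0.0166 and 0.0229). Of 21 crosslinking and modifying enzymes 4 were higher and 1 lower (19% and 4.76%, against 10.5% and 6.3% of all genes). The counts were 7 and 3 without Dorsal 1, and 2 were higher without Oral 3. P3h2, a collagen prolyl hydroxylase, read 7.15, 7.08 and 7.03 in Oral and 5.10, 5.56 and 5.39 in Dorsal (1.74 ± 0.14, adjusted p = 2.51e-05), and Tgm2, a transglutaminase, was higher by 1.96 ± 0.41. Of 42 proteases and inhibitors 4 were higher and 6 lower (9.52% and 14.3%, against 10.5% and 6.3% of all genes). These counts were 7 and 10 without Dorsal 1, and 2 were higher without Oral 2 or Oral 3. Adamtsl3, an ADAMTS-like matrix protein, was higher by 3.03 ± 0.33 (adjusted p = 0.000205). Mmp11, a stromal metalloproteinase, read 9.10, 8.88 and 8.65 in Oral and 10.84, 10.77 and 10.88 in Dorsal (fell by 1.95, SE 0.32, adjusted p = 0.00207), and Adamts4, Mmp23 and Ctsk were lower by 2.16, 1.60 and 1.47. Of 29 integrin and laminin genes 3 were higher and 4 lower (10.3% and 13.8%, against 10.5% and 6.3% of all genes). Lower members numbered 0 without Oral 3 and 1 without Oral 1 or Oral 2. Lamc1 was higher by 1.70 ± 0.28 on its brightest probe set and called the other way on another.

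Lists of dermal fibroblast subsets were called in both directions. Of 16 papillary genes, which mark the upper dermis, Trps1 was higher by 2.03 ± 0.36 and Apcdd1, Prdm1, Ntn1 and Lrig1 were lower. The shares were 6.25% higher and 25% lower, against 10.5% and 6.3% of all genes. Prdm1, a marker of papillary precursors also known as Blimp1, read 4.06, 4.63 and 4.75 in Oral and 7.71, 5.81 and 5.48 in Dorsal (fell by 1.85, SE 0.48), and by 1.32 against Dorsal 2 alone (adjusted p = 0.0142). Its call was lost without Oral 1, Oral 2 or Oral 3 (adjusted p up to 0.0878). Of 17 reticular, adventitial and fascia genes 4 were higher and 2 lower (23.5% and 11.8%, against 10.5% and 6.3% of all genes). Lower members numbered 4 without Dorsal 1 and 0 without Oral 2 or Oral 3. Cd34, a marker of deep fibroblasts, read 6.49, 6.68 and 6.59 in Oral and 3.54, 3.55 and 5.68 in Dorsal (2.33 ± 0.45, adjusted p = 0.00543). Dlk1, a marker of fibroblasts near fat, was higher by 1.54 ± 0.27 and Dpt, dermatopontin, lower by 2.12 (SE 0.52), a call lost without Oral 2 or Oral 3 (adjusted p up to 0.0627). Tendon and ligament markers gave 4 of 11 higher and 1 lower (36.4% and 9.09%, against 10.5% and 6.3% of all genes), with Thbs4 and Mkx (1.54 ± 0.37) ahead. The higher members numbered 1 without Oral 2 and in the 2-group fit, and 2 without Oral 3 and against Dorsal 2 alone. The Mkx call was lost without Oral 2 or Oral 3 (adjusted p up to 0.0666), and Scx was lost in 4 and Egr1 in 1 of 12 fits without 1 array. Tnmd, a late tendon gene, read 10.98, 10.92 and 10.74 in Oral and 8.95, 9.72 and 11.39 in Dorsal and was not called.

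In the list of chemokines, cytokines and complement, limma found 6 lower and 3 higher among 40 measured (15% lower and 7.5% higher, against 6.3% and 10.5% of all genes, median -0.31). Without Dorsal 1 or without Dorsal 2, 10 were lower, and against Dorsal 2 alone 7 were higher and 5 lower. Cxcl1, Cxcl2 and Cxcl5 encode chemokines that attract neutrophils. Cxcl2 read 3.10, 3.43 and 3.17 in Oral and 7.58, 7.58 and 9.04 in Dorsal (fell by 4.83, SE 0.43, 28.5-fold, adjusted p = 5.49e-05). Cxcl1 read 10.13, 10.55 and 10.55 in Oral and 13.35, 11.97 and 12.80 in Dorsal (fell by 2.30, SE 0.30, adjusted p = 0.000545). Cxcl2 was dim in each Oral array, whereas Cxcl1 was well above the dim end in both groups. Cranial means were 5.27 and 12.25, and for Oral against Cranial Cxcl1 was called (adjusted p = 0.0119) and Cxcl2 was not (adjusted p = 0.0531). Cxcl5, of the same family, was lower by 2.29 (SE 0.55), with a difference of -0.60 against Dorsal 2 alone (adjusted p = 0.127) and calls lost without Oral 1 or Oral 3 (adjusted p up to 0.0596). Csf1, a macrophage growth factor, was lower by 1.28 (SE 0.24), Ccl2, a monocyte attractant, by 1.23 (SE 0.31) and C1qtnf3, a complement-related adipokine, by 3.29 (SE 0.36). Il6 read 5.63, 6.18 and 6.39 in Oral and 7.50, 5.95 and 8.34 in Dorsal and was not called. The higher genes were Ptgs2, Ptgis, the prostacyclin synthase gene (1.62 ± 0.22), and Cx3cl1 (1.14 ± 0.22).

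The promoters of Cxcl1 and Cxcl2 are shown because these neighbouring genes were lower together and share a motif. RefSeq (GRCm38.p6) gives the 250 bases before the start of Cxcl1 as chr5:90890995-90891244 and of Cxcl2 as chr5:90903649-90903898, both on the plus strand. Capitals mark GGGANTTTC (N is any base), a form of the kappaB motif that NF-kappaB factors bind, searched on both strands.
Cxcl1: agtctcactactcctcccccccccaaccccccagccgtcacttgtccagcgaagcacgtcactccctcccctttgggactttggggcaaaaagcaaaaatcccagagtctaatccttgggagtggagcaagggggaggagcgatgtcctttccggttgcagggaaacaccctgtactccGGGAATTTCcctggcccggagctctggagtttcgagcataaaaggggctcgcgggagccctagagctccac
Cxcl2: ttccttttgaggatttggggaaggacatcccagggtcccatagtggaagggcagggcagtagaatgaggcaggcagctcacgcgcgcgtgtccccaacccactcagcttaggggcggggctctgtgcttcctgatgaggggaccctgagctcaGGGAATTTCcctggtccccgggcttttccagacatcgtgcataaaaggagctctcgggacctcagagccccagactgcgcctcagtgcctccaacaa
The motif lies 71 bases before the start of Cxcl1 and 97 before that of Cxcl2. It was found in 299 of the 27025 genes with a promoter in the table (1.11%), and in 3 of the 4 lower chemokine-list genes with one, Cxcl2, Cxcl1 and Csf1. A match is a description of these letters and not of binding.

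Interferon-induced and antigen processing genes gave 11 lower, 0 higher and 28 not called of 39 measured. The share lower was 28.2%, against 6.3% of all genes, with a median difference of -1.04. Ifi204, of the p200 family with Ifi202b, read 3.68, 3.71 and 3.71 in Oral and 8.65, 7.06 and 8.99 in Dorsal (fell by 4.53, SE 0.41, adjusted p = 5.79e-05). Ifitm1, an interferon-induced membrane protein gene, read 7.43, 7.19 and 7.19 in Oral and 9.57, 8.45 and 10.01 in Dorsal (fell by 2.07, SE 0.30, adjusted p = 0.00108). Gbp3, a guanylate-binding protein gene, and Ifih1, an RNA sensor, were lower by 2.04 and 2.01. Gbp3 was not called in 7 and Ifih1 in 1 of the 12 fits without 1 array. Some related genes were chosen after their values were seen. Casp1, the inflammatory caspase gene, was lower by 2.80 (SE 0.19), Mndal by 3.02 (SE 0.70), and Ifi203 was not called (-0.07 ± 0.12). Dorsal 2 stood lowest of its group. The median level of the list was 6.94, 6.88 and 6.82 in the Oral arrays, 8.0, 7.06 and 9.12 in Dorsal, and 8.43 to 8.53 in Cranial. Without Dorsal 2 the lower members numbered 20, and against Dorsal 2 alone 8 were lower and 4 higher.

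**Figure D5:**
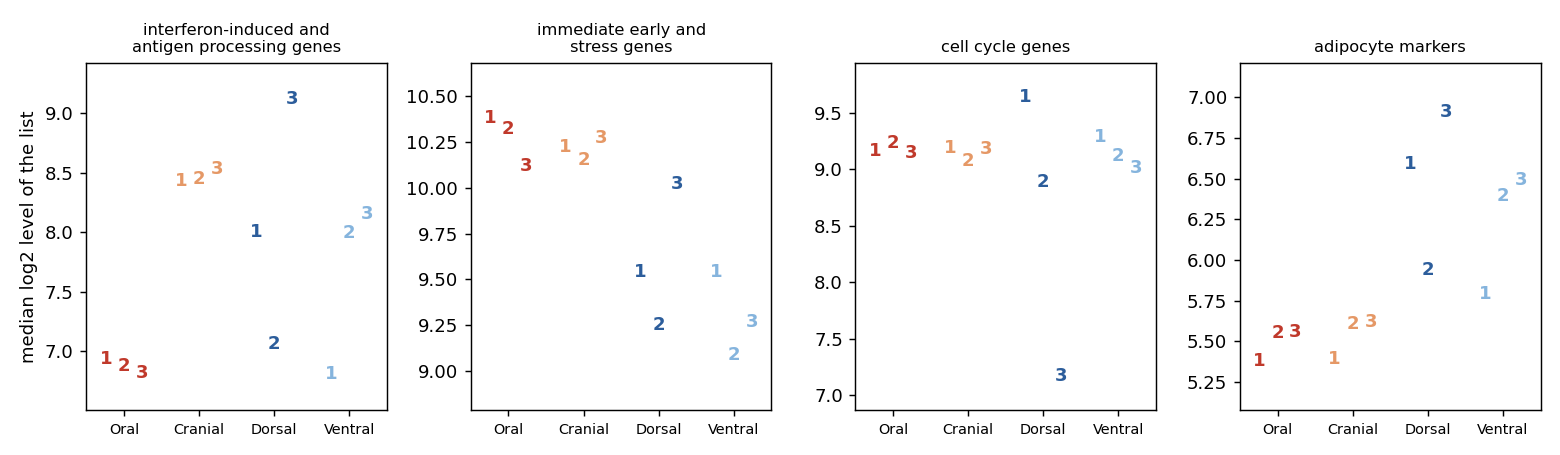
Median log2 level of 4 gene lists in each array of the 4 site groups, with digits for the replicate number and axes that do not start at 0. Dorsal 3 is highest of its group for interferon genes (9.12) and lowest for cell cycle genes (7.17), while the Oral arrays lie close together for immediate early and stress genes (10.12 to 10.38).

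Immediate early and stress genes respond within minutes to growth factors and to handling. Of 35 measured, 14 were higher, 0 lower and 21 not called (40% higher, against 10.5% of all genes, median 0.79). Myc read 8.96, 9.10 and 8.87 in Oral and 7.32, 6.53 and 5.89 in Dorsal (2.40 ± 0.28, adjusted p = 0.000283). Dusp1, a phosphatase gene that limits MAP kinase signalling, read 12.07, 12.14 and 11.91 in Oral and 9.56, 9.85 and 10.35 in Dorsal (2.12 ± 0.22, adjusted p = 0.000163). Fos, Jun, Atf3 and Egr1 were higher by 1.49, 1.30, 1.56 and 0.86. Egr1 was not called without Oral 2 (0.81, adjusted p = 0.0546). Egr3 had the largest difference (3.47 ± 1.01) but overlapped, since Dorsal 3 was at 9.47 beside 5.04 and 4.16, and its call was lost in 10 of 12 fits without 1 array. Cranial means were near the Oral arrays, at 9.35 for Myc, 12.48 for Dusp1 and 12.76 for Fos, and none of the 3 was called for Oral against Cranial. The count was 17 without Dorsal 1 and Dorsal 3 and 9 without Oral 2, and ran from 8 to 22 over the alternatives, and up to 3 members were called lower in them.

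The promoters of Dusp1 and Btg2, an antiproliferative early gene that was higher by 1.12 ± 0.28, are shown because both hold the palindrome TGACGTCA, the cAMP response element bound by CREB and ATF factors. They are the 250 bases before each start in RefSeq (GRCm38.p6), chr17:26508473-26508722 for Dusp1 and chr1:134079156-134079405 for Btg2, both on the minus strand and written 5′ to 3′ along the gene, with the element in capitals.
Dusp1: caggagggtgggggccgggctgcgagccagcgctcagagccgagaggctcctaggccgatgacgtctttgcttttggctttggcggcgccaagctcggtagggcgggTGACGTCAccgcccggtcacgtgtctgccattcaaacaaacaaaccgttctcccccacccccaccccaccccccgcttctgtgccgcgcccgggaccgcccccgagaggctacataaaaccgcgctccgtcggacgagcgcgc
Btg2: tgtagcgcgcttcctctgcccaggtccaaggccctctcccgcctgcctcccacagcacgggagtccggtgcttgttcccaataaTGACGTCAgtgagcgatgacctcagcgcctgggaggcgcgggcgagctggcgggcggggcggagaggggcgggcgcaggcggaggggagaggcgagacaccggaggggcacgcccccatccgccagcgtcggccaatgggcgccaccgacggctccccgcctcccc
The element was in 2 of the 10 higher early genes with a promoter in the table and in 478 of all 27025 (1.77%). The other motifs searched were the homeodomain core TAATTA and the interferon-stimulated response element. TAATTA was found in 3 of 18 higher jaw and face factors (5.65% of all genes). The response element was found in 1 of 10 lower interferon genes (3.46% of all genes). It was also in Ifi203, Ifi207 and Mndal, 3 of 3 family genes picked by hand after their values were seen. Ifi203 was not called (-0.07 ± 0.12), so that count does not describe genes lower in Oral.

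Cell cycle genes were called at shares below those of all genes. Of 34 measured 2 were higher, 1 lower and 31 not called (5.88% and 2.94%), while the median difference was 0.58. The calls of Aurka and Kif11, the higher genes, were lost in 5 and 11 of 12 fits without 1 array. That of Tyms, the lower gene, was lost in 10. Mki67, a proliferation marker chosen after its values were seen, read 11.09, 10.96 and 10.61 in Oral and 11.94, 11.18 and 9.25 in Dorsal, so the Oral arrays lay inside the Dorsal range. The list median was 9.16, 9.23 and 9.14 in Oral and 9.64, 8.89 and 7.17 in Dorsal. Without Dorsal 1 the higher members numbered 14, and without Dorsal 3 they were 2, with 5 lower.

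Adipocyte markers were lower in Oral in 4 of 15 measured, with 0 higher (26.7% lower, against 6.3% of all genes). Their summed level was 12.21 to 12.28 in Oral and 13.71 to 14.54 in Dorsal on the log2 scale. Lpl, lipoprotein lipase, read 10.85, 10.67 and 10.79 in Oral and 13.95, 13.41 and 14.05 in Dorsal (fell by 3.03, SE 0.30, adjusted p = 0.000105). Fabp4, a fatty acid carrier, read 8.86, 9.04 and 8.70 in Oral and 11.96, 10.07 and 10.90 in Dorsal (fell by 2.11, SE 0.39), and Pparg, the regulator of fat cell formation, was lower by 1.75 (SE 0.29). Adipoq, a defining gene of mature fat cells, was dim in Oral (3.67, 3.51 and 3.95) and read 8.05, 4.07 and 7.49 in Dorsal, with no call (adjusted p = 0.0706). Lpl in Cranial averaged 12.88, above Oral (adjusted p = 0.00448), whereas Fabp4 averaged 8.36 there. In bulk RNA, fewer cells of a type and less RNA per cell cannot be told apart, and the part of fat-lineage cells in the other differences was not tested.

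Markers of other cell types were called at shares on both sides of the 16.8% of all genes. The called share was 33.3% for dermal papilla and sheath, 23.5% for Schwann cells and neurons, 20% for keratinocytes, 18.8% for bone, cartilage and tooth, 16.7% for pericytes and smooth muscle, 10% for endothelium and 4.17% for leukocytes. Of 25 keratinocyte genes 1 was higher and 4 lower, each by less than 1, of 20 endothelial genes Flt1 (fell by 2.18, SE 0.33) and Kdr (fell by 0.65) were lower, and of 24 leukocyte genes Cd74 was lower by 0.47, a call lost in 6 of 12 fits without 1 array (adjusted p up to 0.135). Laptm5, a leukocyte gene, read 12.44, 11.88 and 12.57 in Oral and 7.31, 11.95 and 11.67 in Dorsal while Ptprc was dim in all 6. Of 18 pericyte and smooth muscle genes 3 were higher, with Myl9 at 1.66 ± 0.44 (a call lost without Oral 1, Oral 2 or Oral 3, adjusted p up to 0.0902), of 25 skeletal muscle genes none was called, and of 17 Schwann cell and neuron genes 3 were higher and 1 lower. Of 11 salivary gland genes Aqp5, a water channel, was higher by 1.15 ± 0.14, and 5 of the 11 were dim in both groups. Bone, cartilage and tooth markers gave 2 higher of 16, with Acan, aggrecan, at 7.17, 6.90 and 6.87 in Oral and 5.44, 5.21 and 5.09 in Dorsal (1.73 ± 0.17, adjusted p = 0.000109). Dermal papilla and sheath markers gave 3 higher and 4 lower of 21.

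Some further RNAs that parted the groups were chosen after their values were seen. The nuclear RNA Malat1 read 10.46, 10.87 and 10.32 in Oral and 13.76, 13.52 and 13.54 in Dorsal (fell by 3.06, SE 0.16, adjusted p = 8.82e-07). Neat1 fell by 1.71 (SE 0.53), and its adjusted p of 0.0491 in limma was just under the threshold. Rsrc2, a splicing-related gene, fell by 3.01 (SE 0.17). Cranial means were 11.10 for Malat1 and 7.57 for Rsrc2 and Ventral means 13.10 and 10.25, so Cranial lay near Oral and Ventral near Dorsal. Reporter line and head against trunk coincide in these groups and cannot be told apart. Eif2s3y, a Y-linked gene with a close X-linked relative, read 3.21, 3.24 and 3.28 in Oral and 7.81, 6.88 and 6.92 in Dorsal, while Xist, which marks the inactive X, lay between 10.88 and 11.48 in all 6 arrays and the Y-linked Uty and Kdm5d between 3.35 and 4.29. The part of RNA handling or of the sex of the mice in the other differences was not tested.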

How the data were processed

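RNA of sorted cells was measured on Affymetrix whole-genome mouse arrays, per the labels' protocols. The authors deposited log2 expression values, normalized by RMA with quantile normalization in R per the series design text; versions and the number of runs are not stated. Of 45101 probe sets, 64 controls were set aside, and 34945 carried 1 gene symbol, 932 several and 9160 none. Each of 18193 genes was read from its brightest probe set, by the mean of all 18 arrays, since 9010 genes had more than 1. Limma 3.58.1 (lmFit, eBayes; R 4.3.3) fitted the 12 site arrays in 1 model, with Benjamini-Hochberg adjustment over all genes; calls needed an adjusted p below 0.05. The script was tested on simulated data. Named genes were the 15 largest non-overlapping called rises and falls, up to 5 called members per direction of each of 35 lists (or, without calls, the member that differed most), and 10 checks; list members beyond these were chosen after their values were seen. The comparison, lists and rule were set with earlier results of these data known. Alternatives changed the arrays fitted, array weights, variance model, dim genes, probe set rule, scaling, fold threshold and replicate block. Arrays give no read depth; their number limits the precision. Promoters came from RefSeq (GRCm38.p6), and motifs were chosen after gene values were seen. Python 3.11.15 with pandas 2.3.3 and matplotlib 3.10.9 drew the plots.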

Additional observations from a re-analysis of the deposited data

How the results depend on the processing

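For Oral against Dorsal, 3065 genes were called, and 1065 (724 higher, 341 lower) in the 2-group fit, 8963 (4904 higher, 4059 lower) with array weights, 5383 (4045 lower) with median centring, 1148 (769 higher, 379 lower) at 2-fold or more, and 1756 lower with quantile normalization. Oral against Cranial gave 1795 in the 2-group fit, 1926 with array weights and 778 without Dorsal 1 and Dorsal 3, an alternative chosen after seeing the data. Ventral against Dorsal gave 0 in the 2-group fit with limma, 952 with array weights, 8 with quantile normalization and 60 without Dorsal 1 and Dorsal 3. The cause of these shifts was not tested. Leaving out 1 array at a time gave 1770 to 5623 called genes (1140 to 3721 higher, 598 to 1902 lower) for Oral against Dorsal, 111 to 433 for Oral against Cranial and 2 to 161 for Ventral against Dorsal.

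Same-numbered Oral and Dorsal arrays had deviations from their group means that correlated at 0.00766, -0.21 and 0.161. With 3 arrays a group these values are not independent, so they cannot show whether same-numbered arrays shared a run or day. With the replicate block 2760 genes were called for Oral against Dorsal (1777 higher, 983 lower), 170 for Oral against Cranial and 2 for Ventral against Dorsal. Of 172 named and called genes, 87 kept their call under every alternative but the fold threshold, 113 in every fit without 1 array, and 138 without Dorsal 1 and Dorsal 3. The one reversal was Pecam1, at 0.01 as reported and -0.29 with array weights (adjusted p = 0.0458). Of 93 called genes with other probe sets, 48 had another called the same way, 3 the opposite way and 43 none. Among the 43 were also Chl1, Fst, Ntn1, Dlk1, Egr3 and Cx3cl1. Signal over background limits dim genes, and 3 arrays a group limit the rest.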
